A study of Arabidopsis thaliana with 6 samples.

Results

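The loci AT1G23560, AT1G23570, AT1G23580, AT1G23590 and AT1G23600 are 5 protein-coding genes that follow each other in the gene order of *Arabidopsis thaliana*, as read from their AGI codes, which number the genes along each chromosome. They were taken as the single-gene probe sets with a code from AT1G23560 to AT1G23600 inclusive, and this range was chosen by the measured differences between the genotypes on these same arrays. All 5 genes that the RefSeq table of assembly TAIR10.1 lists in this range have such a probe set, out of 13286 genes measured in this way. An earlier list of this range named 4 of them, without AT1G23590. The tables used here give these genes no name beyond their locus code and a clone-based synonym, so no role is assigned to them.

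Inflorescences, the flowering tips of the shoot, were compared between the *top1a-2* mutant and the wild type, on 3 arrays each. Both genotypes were labelled as the accession Landsberg erecta (Ler), a laboratory line that carries the *erecta* mutation, and all plants were grown at 23 °C in continuous light. The series calls the replicates biological, and the sources used here do not state plant age or whether plants were pooled. The probe sets of the mutated gene are unnamed here, so its level gives no check of the labels.

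DNA topoisomerase 1 cuts a single strand of the double helix, lets it turn and seals it again, which removes the supercoils that build up ahead of and behind a moving RNA polymerase. Arabidopsis has a pair of neighbouring genes for this enzyme, *TOP1α* and *TOP1β*, and loss of TOP1α disturbs the growth of shoots and flowers. Genes that lie side by side in a plant genome often arose by tandem duplication, and such neighbours can share stretches of sequence. The sequences of these 5 genes were not compared here, either with each other or with those of the genes around them. All 5 probe sets carry the plain suffix _at and not the suffixes that Affymetrix gives to probe sets that match several transcripts.

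The values are log2 signals made by MAS5, in which a step of 1 is a 2-fold change. They are not levels per length of transcript, so the level of a gene was not ranked against that of another. In bulk tissue, fewer cells of a type and less RNA per cell cannot be told apart. Differences are *top1a-2* minus wild type, with the standard error (SE) of a limma model fitted over all 22746 probe sets, and since this contrast chose the 5 genes they are given as descriptions without a test.

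All 5 genes were lower in *top1a-2* inflorescences, on every array. The differences lay between −2.21 and −1.21 with a median of −1.61, while the median over all 22746 probe sets was −0.00333. Without AT1G23590 the median was −1.60. In all 5 genes the *top1a-2* values lay below the wild-type values without overlap, which 14.5% of all probe sets also did. All 5 were at least 2-fold lower, as were 9.84% of all probe sets, and 6.06% of all met both conditions. Without *top1a-2* replicate 2 the difference of AT1G23560 was −0.95, under 2-fold. The genes were selected on this contrast, so nothing is read from these shares.

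AT1G23570 had the widest separation between the genotypes. Its signals were 7.81, 8.22 and 8.18 in *top1a-2*, against 10.47, 9.95 and 10.03 in the wild type. The highest mutant array was 1.73 below the lowest wild-type array. Means were 8.07 ± 0.23 in *top1a-2* and 10.15 ± 0.28 in the wild type (SD, n = 3 each), a difference of −2.08 with an SE of 0.17, or 4.23-fold. Of the 22746 probe sets, 457 had a lower difference.

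AT1G23590 had the lowest difference and also the widest spread in the wild type. It was at 5.63, 6.52 and 6.63 in *top1a-2*, against 8.32, 7.72 and 9.36 in the wild type. The 3 wild-type arrays thus spread over more than the 1.09 that separated the genotypes. Means were 6.26 ± 0.55 in *top1a-2* and 8.47 ± 0.83 in the wild type (SD, n = 3 each), a difference of −2.21 with an SE of 0.40, or 4.62-fold. In all, 370 probe sets had a lower difference.

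AT1G23600, like AT1G23570, varied little among the arrays of either genotype. It had 7.26, 7.39 and 7.81 in *top1a-2*, against 9.17, 9.17 and 8.89 in the wild type, and the groups were 1.08 apart. The means of 7.49 ± 0.29 in *top1a-2* and 9.08 ± 0.16 in the wild type (SD, n = 3 each) gave a difference of −1.59 with an SE of 0.17, or 3.01-fold.

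AT1G23580 was nearly constant in the wild type and uneven in the mutant. Its signals were 5.12, 6.55 and 6.42 in *top1a-2*, against 7.71, 7.56 and 7.65 in the wild type. Replicate 1 of *top1a-2* was the low array, and the groups were 1.01 apart. Means were 6.03 ± 0.79 in *top1a-2* and 7.64 ± 0.08 in the wild type (SD, n = 3 each), a difference of −1.61 with an SE of 0.36, or 3.05-fold. Without *top1a-2* replicate 1 it was −1.16.

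AT1G23560 had the smallest difference and the smallest gap. It was at 7.26, 6.23 and 6.76 in *top1a-2*, against 7.99, 7.74 and 8.16 in the wild type. The nearest arrays of the genotypes were 0.48 apart. Means were 6.75 ± 0.52 in *top1a-2* and 7.96 ± 0.21 in the wild type (SD, n = 3 each), a difference of −1.21 with an SE of 0.27, or 2.32-fold. Here 1683 probe sets, or 7.40% of all, had a lower difference.

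**Figure D1:**
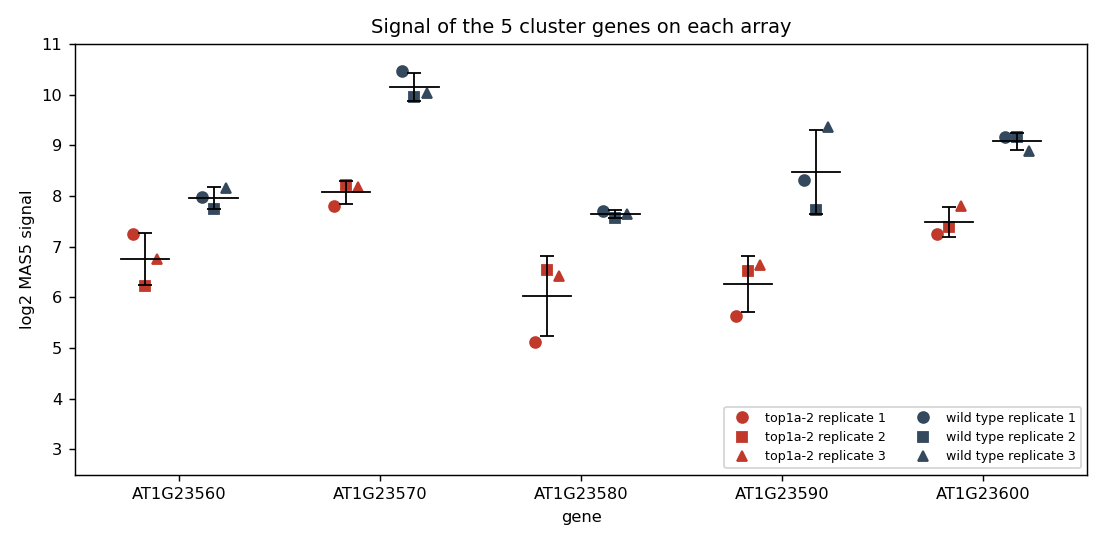
Log2 MAS5 signal (vertical axis) of the 5 cluster genes on each of 3 *top1a-2* arrays (red, left of each pair) and 3 wild-type arrays (dark, right of each pair); horizontal bars are means and error bars SD. In every gene the red points lie below the dark ones, with the smallest gap of 0.48 in AT1G23560 and the largest of 1.73 in AT1G23570.

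Where a signal lies against the median of its own array bears on how well it is measured. The median signal of all probe sets was 7.65 to 7.73 on the *top1a-2* arrays and 7.74 to 7.85 on the wild-type arrays. In *top1a-2*, AT1G23560, AT1G23580 and AT1G23590 were below that median on all 3 arrays, and AT1G23570 was above it on all 3. In the wild type, AT1G23570 and AT1G23600 were above the median on all 3 arrays and AT1G23580 below it on all 3. No detection calls were used, and a dim value does not mean that the transcript was missing.

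Over the 6 arrays, the 10 pairs of cluster genes had Pearson correlations of 0.58 to 0.98, with a median of 0.88. These values are set mostly by the separation of the genotypes, which all 5 genes share by choice. After the genotype mean was taken from each value, the correlations ran from −0.80 to 0.69 with a median of 0.16, and 5 of the 10 were positive. The cluster genes therefore shared the genotype difference, and their replicate-to-replicate deviations had no direction common to all 5. Every pair with AT1G23560 was negative, from −0.80 to −0.10, while the pairs among the other genes ran from −0.02 to 0.69. With 3 arrays per genotype these correlations are descriptions and were not tested.

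Among the *top1a-2* arrays, the replicate pattern divided AT1G23560 from the other genes. On *top1a-2* replicate 1, AT1G23570, AT1G23580, AT1G23590 and AT1G23600 each had their lowest mutant value, with deviations from their mutant means of −0.26, −0.91, −0.63 and −0.23, while AT1G23560 had its highest, with a deviation of 0.51. Over the arrays of both genotypes, the deviations of AT1G23560 correlated at −0.80 with those of AT1G23580 and at −0.45 with those of AT1G23570. By contrast AT1G23570 and AT1G23580 had 0.69. The wild-type arrays did not set AT1G23560 apart. There replicate 2 was lowest for 4 of the 5 genes, AT1G23560 among them. AT1G23600 was the exception, with its lowest value on replicate 3. The wild-type deviations of AT1G23560 were 0.03, −0.22 and 0.20, against −0.15, −0.75 and 0.89 for AT1G23590.

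**Figure D2:**
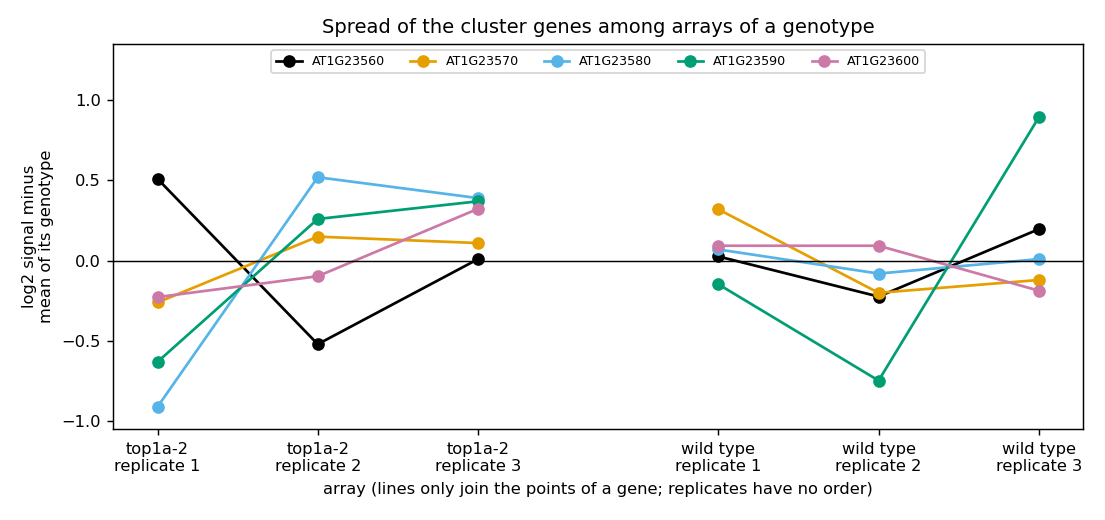
Log2 signal of each cluster gene minus the mean of its genotype (vertical axis) on the 3 *top1a-2* arrays (left) and the 3 wild-type arrays (right), 1 colour per gene. On *top1a-2* replicate 1 AT1G23560 is 0.51 above its mean while the other 4 genes are below theirs, and AT1G23590 has the widest spread among wild-type arrays.

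The genes on either side lie outside the chosen range, whose ends were set with values of these arrays known. They were tested in the same model with Benjamini-Hochberg adjustment over all 22746 probe sets, which does not account for that choice. The list took the 20 code steps on each side, from AT1G23360 to AT1G23550 and from AT1G23610 to AT1G23800. Of 39 genes that the reference lists there, 24 had a single-gene probe set. By limma with an adjusted p under 0.05, 3 fell in *top1a-2*, 2 rose and 19 were not called. Over all probe sets 5.86% were called lower, 3.40% higher and 9.26% in either direction. The median difference of the 24 genes was −0.22. Without *top1a-2* replicate 3 only the 3 decreases were called.

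The 3 flanking genes that fell were AT1G23520, AT1G23670 and AT1G23690. AT1G23520 was at 7.08, 7.45 and 7.81 in *top1a-2*, against 9.57, 9.26 and 9.59 in the wild type, a difference of −2.03 (SE 0.19) and a limma adjusted p of 0.000109. AT1G23670 had 7.50, 7.94 and 7.54 in *top1a-2*, against 9.56, 9.38 and 8.91 in the wild type, a difference of −1.62 (SE 0.19) and a limma adjusted p of 0.000454. AT1G23690 had 6.18, 6.31 and 6.52 in *top1a-2*, against 7.99, 7.73 and 7.86 in the wild type, a difference of −1.52 (SE 0.21) and a limma adjusted p of 0.00127. In each of the 3 the genotypes were separated by more than the spread within either, and all 3 kept their calls under each alternative in which they were fitted, AT1G23690 being too dim for the one without dim probe sets. Their differences lie within the range of the 5 cluster genes.

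The next gene above the cluster, AT1G23610, was dim and uneven. Its signals were 4.53, 2.02 and 3.45 in *top1a-2*, against 6.52, 5.0 and 5.55 in the wild type. The groups did not overlap, and the difference of −2.36 with an SE of 0.72 had a limma adjusted p of 0.0704, just short of a call. Over the alternatives its limma adjusted p ran from 0.0352, with the replicate number as a block, to 0.219, without wild-type replicate 1. It passed 0.05 only with the block and without *top1a-2* replicate 1, at 0.0497 and a difference of −2.96. With a pseudocount of 16 the difference was −1.31, and without *top1a-2* replicate 2 it was −1.70.

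On the other side the order was broken. *PERK12*, of a receptor kinase family with extracellular regions rich in proline, and *SRO2*, of the family named for RCD1, lie between AT1G23530 and the cluster, and both were not analysed here. AT1G23530, the nearest measured gene, had 7.73, 7.76 and 7.28 in *top1a-2*, against 6.78, 6.95 and 7.46 in the wild type. These groups overlapped, and the difference of 0.53 with an SE of 0.24 had a limma adjusted p of 0.222. A gene with a positive difference thus stood between AT1G23520, which fell, and the cluster. Beyond AT1G23520 lay AT1G23510, with a difference of −1.32, no overlap between the genotypes and a limma adjusted p of 0.117.

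Of the 24 flanking genes, 6 were at least 2-fold lower, beside 9.84% of all probe sets. Of these 6 genes, 3 were the called ones. The others, AT1G23510, AT1G23610 and AT1G23680, were not called. Several dim genes beside the cluster gave wide errors. AT1G23680 had a difference of −1.16 with an SE of 0.94 and overlapping groups, and AT1G23650 had −0.35 with an SE of 0.91. For AT1G23640, which has a second probe set, the brighter one gave −0.39 and the dimmer one −1.96, and neither was called. At a higher code, AT1G23700 and AT1G23710, right after AT1G23690, had differences of 0.14 and −0.09.

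The flanking genes that rose lie further out, one on each side. *CSLA03*, of the cellulose synthase-like A family that makes mannan chains of the cell wall, had 8.20, 8.03 and 8.49 in *top1a-2*, against 7.29, 7.45 and 7.37 in the wild type, a difference of 0.87 (SE 0.17) and a limma adjusted p of 0.0104. Without *top1a-2* replicate 3 its limma adjusted p was 0.0656. *AOR*, which encodes an alkenal/one oxidoreductase of the chloroplast, had a smaller difference of 0.41 (SE 0.11) and a limma adjusted p of 0.0363. It lost its call when any single array was left out, at up to 0.122. *INO*, which shapes the outer integument of the ovule, had a difference of −0.44 with a limma adjusted p of 0.230.

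**Figure D3:**
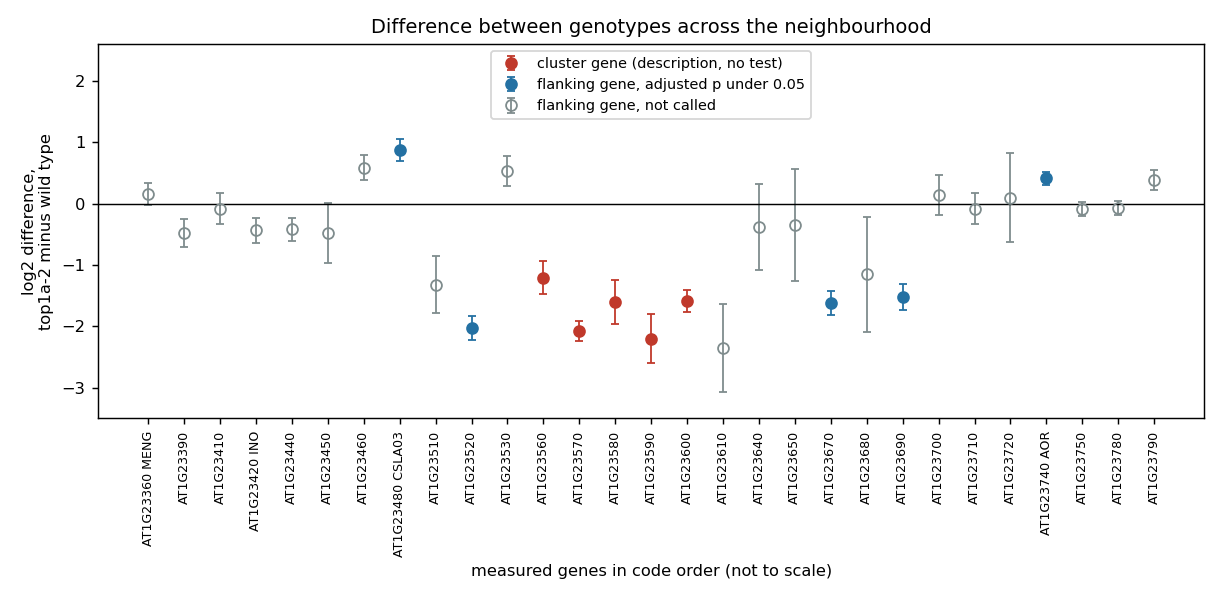
Log2 difference, *top1a-2* minus wild type (vertical axis), of the 5 cluster genes (red), the flanking genes called by limma (blue) and those not called (open grey), in order of their codes and not to scale; error bars are SE. The blue points below −1 are AT1G23520, AT1G23670 and AT1G23690, and AT1G23530, with a difference of 0.53, lies between AT1G23520 and the cluster.

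AT1G23520 also had the highest correlation with the cluster over the 6 arrays, a measure set mostly by the genotype difference on which the cluster was selected. The mean of the 5 cluster genes was 6.62, 6.98 and 7.16 on the *top1a-2* arrays, against 8.73, 8.43 and 8.82 on the wild-type arrays. Among 5907 single-gene probe sets outside the cluster with a mean signal above the median, AT1G23520 had a Pearson correlation of 0.998 with this profile. After the genotype means were removed it had 0.97, while AT1G02470 had 0.99 and AT2G02780 had 0.96, so by that measure AT1G23520 was not the first of the 6 closest. Of the 5907 probe sets, 207 reached a correlation of 0.95 over the 6 arrays.

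The other 5 closest profiles came from elsewhere in the genome and also had lower values in *top1a-2*. AT2G02780 correlated at 0.998 with the cluster mean and had a difference of −0.59. AT1G02470 had 0.997 and a difference of −0.76. *LEA*, which encodes a dehydrin, a protein of drying and desiccated tissue, had 0.996 and a difference of −2.23. AT1G06250 and AT4G31330 had 0.995 and 0.994, with differences of −1.82 and −1.04. The likeness is one of shape across arrays, so a gene with a much smaller difference can rank above one with a similar difference.

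Marker lists of the cell types of an inflorescence, drawn up with earlier results of these data known, moved with genotype as well. Beside their counts stand the shares of all probe sets, 5.86% called lower and 3.40% called higher. Since the lists were drawn up in this way, nothing is read from their counts or adjusted p. All 14 pollen markers fell by limma with an adjusted p under 0.05, and the list mean was 7.27, 7.19 and 7.28 in *top1a-2*, against 9.5, 8.70 and 8.90 in the wild type. Of 6 measured markers of anther and tapetum, 5 fell and 0 rose, with list means of 8.12, 8.06 and 8.43 in *top1a-2*, against 9.55, 9.42 and 9.64 in the wild type. Of 5 green tissue markers, 4 rose and 0 fell, with list means of 12.34, 12.24 and 12.17 in *top1a-2*, against 11.25, 11.75 and 11.71 in the wild type. The 5 markers of ovule and carpel were not analysed here. The part of these tissues in the difference of the cluster was not tested.

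The list means correlated with the cluster mean over the 6 arrays at 0.99 for anther and tapetum, 0.96 for pollen and −0.92 for green tissue, values that the genotype difference mostly sets. Once the genotype means were removed they were 0.74, 0.31 and −0.46, over 6 arrays and untested. Among arrays of the wild type, replicate 1 stood apart in pollen markers at 9.5, and replicate 2 was lowest in both the pollen and the cluster mean. The cluster mean was 8.73 on replicate 1 and 8.82 on replicate 3, where AT1G23590 had its highest value of 9.36. Replicate 1 was highest for 3 of the 5 cluster genes, a tie included. Of the 4 brightest anther and tapetum markers, *ATA27* and AT5G07230, known as *A9*, are expressed in the tapetum, the inner anther wall that nourishes the microspores. *ATA27* was bright on all arrays, at means of 12.40 ± 0.26 in *top1a-2* and 13.60 ± 0.10 in the wild type (SD, n = 3 each), and fell by 1.19 (SE 0.15, limma adjusted p of 0.000767). AT5G07230 fell by 1.04 (SE 0.18, limma adjusted p of 0.00437). The sugar transporter gene *SWEET8* fell by 1.57. *SPL*, a regulator of early sporogenous cells, fell by 1.46.

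**Figure D4:**
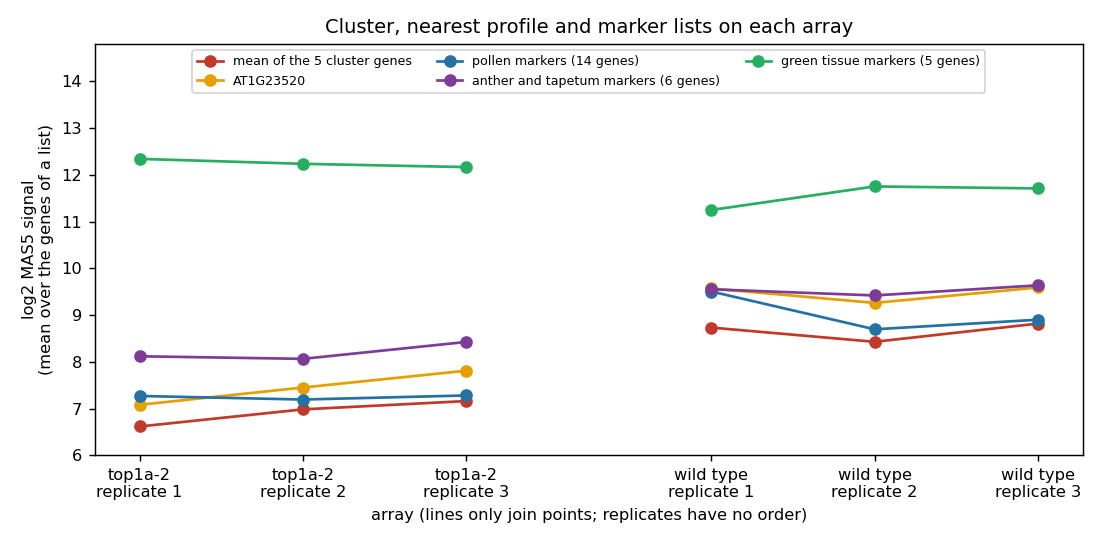
Log2 MAS5 signal (vertical axis) on the 3 *top1a-2* arrays (left) and the 3 wild-type arrays (right) for the mean of the 5 cluster genes, AT1G23520 and the means of 3 marker lists. The cluster mean, AT1G23520, pollen markers and anther and tapetum markers are all lower in *top1a-2*, and green tissue markers are higher, at 12.17 to 12.34 in *top1a-2* against 11.25 to 11.75 in the wild type.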

How the data were processed

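The authors deposited log2 signals, 1 column per array, for 22810 probe sets. The tools named in the submitters' processing notes are affy and MAS5, a method that corrects background and combines probes within each array. The sources used here state no versions. The values show that every array was scaled to a trimmed mean of 500, with the 2% highest and lowest probe sets left out. No coordinates are given, since no array build is named.

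After 64 control probe sets were set aside, 22746 were fitted with limma 3.58.1 in R 4.3.3 on genotype alone (lmFit, eBayes with a trend) and adjusted by Benjamini-Hochberg. The platform annotation names 1 gene for 13513 probe sets, several for 503 and none for 8730, and gene identifiers linked 13436 of those naming 1 gene to the RefSeq table of TAIR10.1. A gene with more than 1 probe set is given by the brightest. The fit was run on simulated data with changes put only into probe sets above the median signal. That run does not cover dimmer genes such as AT1G23580, and nothing is read from it here. Precision is limited by 3 arrays per genotype.

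Members and lists were chosen with earlier results of these data known. The genes named are the members, the nearest and the called flanking genes, the 6 closest profiles and the 4 brightest markers of the nearest list; other flanking genes were chosen after their values were seen. A list of relatives, planned from protein sequences and from text in gene synonyms, gave 0 genes by text, and its sequence step, protein identity and promoter motifs were not run.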

Additional observations from a re-analysis of the deposited data

How the results depend on the processing

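The alternatives were median centring, quantile normalization, a pseudocount of 16, leaving out the dimmest 50% of probe sets, a variance prior without trend, the replicate number as a block, and leaving out each array in turn. All 5 cluster genes kept negative differences in each. Their median lay between −1.87 and −1.48 with single arrays left out. Without the dimmest 50%, AT1G23560, AT1G23580 and AT1G23590 were not fitted, so there is no median. The median without AT1G23590 was added after the data were seen. The numbers of probe sets called were 773 higher and 1334 lower. After median centring they were 1153 and 1167, and without the variance trend 209 and 633. With single arrays left out, 357 to 794 were called higher and 975 to 1335 lower, the counts of higher ones without *top1a-2* replicates 1, 2 and 3 being 357, 411 and 373. Of the 24 flanking genes 5 were called, and 3 to 5 with single arrays left out. *AOR* had a limma adjusted p of 0.154 without the variance trend and 0.0649 with the block. The replicate numbers were not taken to pair the samples in the main fit. Deviations of same-numbered arrays correlated at 0.09, 0.09 and 0.21, values that do not settle whether they were paired. All 6 arrays correlated best with the array of their own number, a weak hint from the data and not from the design. Deviations from a shared genotype mean depend on each other, so these are not 6 separate matches. With the block, 748 probe sets were called higher and 1342 lower, and the member median stayed at −1.61. Signals near the dim end limit AT1G23610, AT1G23640, AT1G23650 and AT1G23680.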

Other observations

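Runs of neighbouring genes that are all at least 2-fold lower in *top1a-2* were counted along the chromosomes. In code order there were 13197 windows of 5 adjacent measured genes, and in 5 of them all genes were at least 2-fold lower. Of all probe sets taken singly, 9.84% were at least 2-fold lower, and the number of windows to be expected was not worked out. Overlapping windows share genes, and 2 of the 5 windows lie here, from AT1G23560 to AT1G23600 and from AT1G23570 to AT1G23610. The others run from AT2G19000 to AT2G19070, from AT3G21960 to AT3G22050 and from AT3G28770 to AT3G28840, with median log2 differences of −1.57, −1.44 and −2.56. The cluster was chosen with its values known, so this count is a description. The window size was set after the data were seen, and unmeasured genes were skipped.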
